A study of Mus musculus with 18 samples.

Results

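The postsynaptic density scaffold genes described here are 10 genes chosen by name, namely *Dlg2*, *Dlg3*, *Dlg4*, *Shank1*, *Shank2*, *Shank3*, *Dlgap1*, *Dlgap2*, *Dlgap3* and *Dlgap4*, among 53468 genes in the count table. All 10 were matched to a gene identifier and all 10 passed the filter on low counts in every comparison. Poly(A) RNA was sequenced from the forebrain, midbrain and hindbrain of 3 Fmr1CRE knock-in mice and 3 wild-type (WT) mice at postnatal day 25. Each mouse gave 1 library per region, so there were 18 libraries in 6 groups of 3. All mice came from the same litter. Fmr1CRE mice carry a nucleotide change in a cis-regulatory element of *Fmr1*, made by CRISPR/Cas9 in zygotes on a C57BL/6 background and so present throughout the body, and no agent is named for either genotype. Several independent lines were made, and which of them gave these mice is not given in the sources used here. Total counts per library lay between 22455512 and 28061185.

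The postsynaptic density is the protein meshwork beneath the membrane of an excitatory synapse, and it holds glutamate receptors opposite the site of release. It is built in layers. The Dlg proteins (PSD-93 from *Dlg2*, SAP102 from *Dlg3* and PSD-95 from *Dlg4*) bind receptors and adhesion proteins at the membrane through PDZ domains. The Dlgap proteins (also called GKAP or SAPAP) bind the Dlg proteins on one side and, through their last residues, the PDZ domain of the Shank proteins on the other. Shank proteins link this layer to Homer and the actin cytoskeleton. FMRP, the product of *Fmr1*, binds mRNA and is known to bind several mRNAs of this group, *Dlg4* and *Shank* mRNAs among them.

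The ends of the Dlgap coding sequences are shown because they carry the join to Shank. They were read from GENCODE M21 transcripts of GRCm38, in the direction of the gene, with the last 4 codons before the stop codon in capitals.
Dlgap1: atctacatccccgaggcgCAGACCCGGCTC
Dlgap2: atctacatccctgaggccCAGACGCGGCTC
Dlgap3: atctacatccccgaggccCAGACCAGGCTG
Dlgap4: atttatgtccccgaggccCAGACCAGGCTC
The 4 ends differed from each other as DNA, with 9 of the 12 marked bases identical in all 4 genes, and gave 1 translation. For whole-gene identity 1 coding sequence per gene was aligned, of 2046 bases for *Dlgap1* and 2931 to 3180 for the other Dlgap genes. Paired members of the Dlgap family were identical at 66.9% to 70.5% of the 1922 to 2766 aligned bases. Bases opposite a gap were not counted. *Dlgap1* lies on chromosome 17 from 69969073 to 70821413, *Dlgap2* on chromosome 8 from 14095865 to 14847680, *Dlgap3* on chromosome 4 from 127169204 to 127237022 and *Dlgap4* on chromosome 2 from 156613705 to 156764363. *Dlg2* (chromosome 7, 90476672 to 92449247), *Dlg3* (chromosome X, 100767722 to 100818410) and *Dlg4* (chromosome 11, 70016942 to 70047522) are unlinked, while *Shank1* (44310253 to 44360572) and *Shank2* (144001928 to 144424494) also lie on chromosome 7 and *Shank3* on chromosome 15 (89499623 to 89560261). All 10 genes are annotated on the plus strand. Exons of *Dlg2*, *Shank1*, *Shank3*, *Dlgap1* and *Dlgap4* overlap those of other annotated genes, whose counts came to at most 0.82% of the member's own. Whether counting used the strand is not given in the sources used here, so reads from these overlaps cannot be assigned with certainty.

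The sequences before the starts of *Shank3* and *Dlgap3* are shown because these members had the largest differences between forebrain and midbrain. They are RefSeq promoter windows on GRCm38.p6, the 250 bases before an annotated start on the plus strand, with GGGCGG (or CCGCCC on the other strand) in capitals.
Shank3, chr15:89499358-89499607: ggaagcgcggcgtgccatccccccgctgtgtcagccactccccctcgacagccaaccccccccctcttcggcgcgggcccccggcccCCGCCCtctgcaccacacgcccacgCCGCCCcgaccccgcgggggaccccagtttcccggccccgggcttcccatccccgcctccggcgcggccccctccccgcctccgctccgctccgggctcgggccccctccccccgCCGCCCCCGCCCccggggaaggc
Dlgap3, chr4:127172630-127172879: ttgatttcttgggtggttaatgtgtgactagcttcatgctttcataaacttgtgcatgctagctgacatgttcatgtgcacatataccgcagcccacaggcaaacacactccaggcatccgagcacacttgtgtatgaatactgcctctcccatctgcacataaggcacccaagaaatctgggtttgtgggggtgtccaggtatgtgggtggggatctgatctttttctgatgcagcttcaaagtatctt
The *Shank3* window held 31 CpG and 4 copies of the motif, and the *Dlgap3* window, which lies inside the gene's annotated span, held 2 CpG and 0 copies. Of 13 windows for 7 members, 4 held GGGCGG, against 32.7% of all windows of this length. TATAAA was in 1 of 13 (12.4% of all) and TGACGTCA in 0 of 13 (1.55% of all).

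As a check of the labels, markers of cortical and hippocampal excitatory neurons summed to 931 to 1185 CPM (counts scaled to library size) in forebrain and 122.9 to 230 in hindbrain, and markers of cerebellar granule neurons to 87.1 to 115.8 in forebrain and 727.8 to 1602 in hindbrain. The midbrain libraries held both, at 564.9 to 1074 and 281.7 to 677 CPM. *Fmr1*, the targeted gene, lay at 74.1, 74.6 and 78.8 CPM in Fmr1CRE forebrain and 69.2, 80.6 and 83.4 in WT forebrain. The forebrain libraries of both mice numbered 3 had been doubted in earlier results of these data, and results are therefore also given without these mice. Across genes, deviations of the forebrain library from its group mean correlated with those of the other regions of the mouse at -0.22 and -0.18 in WT replicate 3, at -0.08 and -0.07 in Fmr1CRE replicate 3 and at -0.08 and -0.04 in WT replicate 2, and were above 0 in the other 3 mice.

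**Figure D1:**
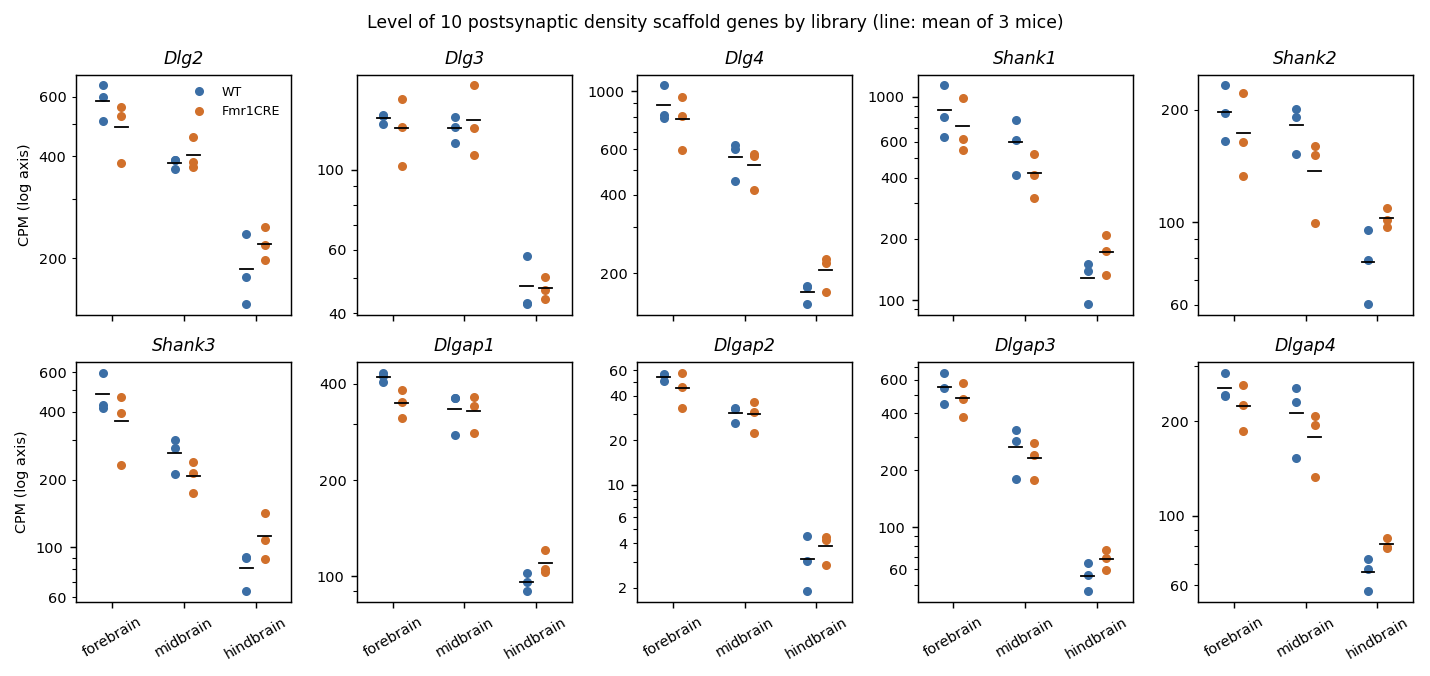
Level of each gene in CPM (log axis) by region, with 1 point per library, WT in blue and Fmr1CRE in orange, and a line at the mean of 3 mice. The hindbrain points lie below the forebrain points for all 10 genes, and *Dlgap2* is the lowest gene, at 1.89 to 4.51 CPM in hindbrain.

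All 10 genes were higher in forebrain than in hindbrain, from 2.07-fold for *Shank2* to 14.3-fold for *Dlgap2* (edgeR, adjusted p of 2.69e-05 or less). Of all 20363 genes tested, 26.4% were called higher in forebrain. The median log2 fold change of the members was 2.01, against -0.01 over all genes. The 6 forebrain and 6 hindbrain libraries did not overlap for any of the 10, against 27.7% of all genes. In these bulk samples fewer cells of a type and less RNA per cell cannot be told apart.

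Of the membrane-proximal Dlg genes, *Dlg4*, which encodes the most abundant scaffold of the mature density, ranged in forebrain from 594 to 1055 CPM with a median of 810.5. In hindbrain it ranged from 152.3 to 226.5 with a median of 177.9. The lowest forebrain library, Fmr1CRE replicate 1, still lay above every hindbrain library. The difference was 2.16 on the log2 scale (SE 0.14, 95% interval 1.87 to 2.45). *Dlg2* lay at 382.6 to 648.6 CPM in forebrain and 146.4 to 246.7 in hindbrain, a log2 fold change of 1.40 (SE 0.12). *Dlg3*, which is prominent in young synapses, lay at 102.2 to 156.8 in forebrain and 42.5 to 57.7 in hindbrain, a log2 fold change of 1.51 (SE 0.12).

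Among the linkers, *Dlgap2* was at 33.1 to 57.5 CPM in forebrain, with a median of 53.3, and at 1.89 to 4.51 in hindbrain, with a median of 3.63. Its hindbrain counts were between 51 and 123 reads per library. The log2 fold change was 3.84 (SE 0.20, 95% interval 3.41 to 4.27). *Dlgap3*, abundant in striatum, was at 381.4 to 652.4 CPM in forebrain and 46.2 to 75.6 in hindbrain, a log2 fold change of 3.05 (SE 0.17). *Dlgap1* and *Dlgap4* differed by 1.90 (SE 0.09) and 1.71 (SE 0.14). The Dlgap family thus held both the largest differences and members near the median of the 10.

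Of the Shank genes, which form the deepest layer, *Shank1* ranged in forebrain from 544.8 to 1138 CPM with a median of 717.3, and in hindbrain from 95.9 to 209.5 with a median of 145.6. Its log2 fold change was 2.40 (SE 0.22). *Shank3*, whose loss is known from an autism-related syndrome, was at 230.9 to 596.1 CPM in forebrain and 63.9 to 141.3 in hindbrain, a log2 fold change of 2.13 (SE 0.18). *Shank2*, which cerebellar Purkinje cells also use, had the smallest difference of the 10, at 1.05 (SE 0.15), with 132.8 to 232.3 CPM in forebrain and 60.3 to 109 in hindbrain.

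**Figure D2:**
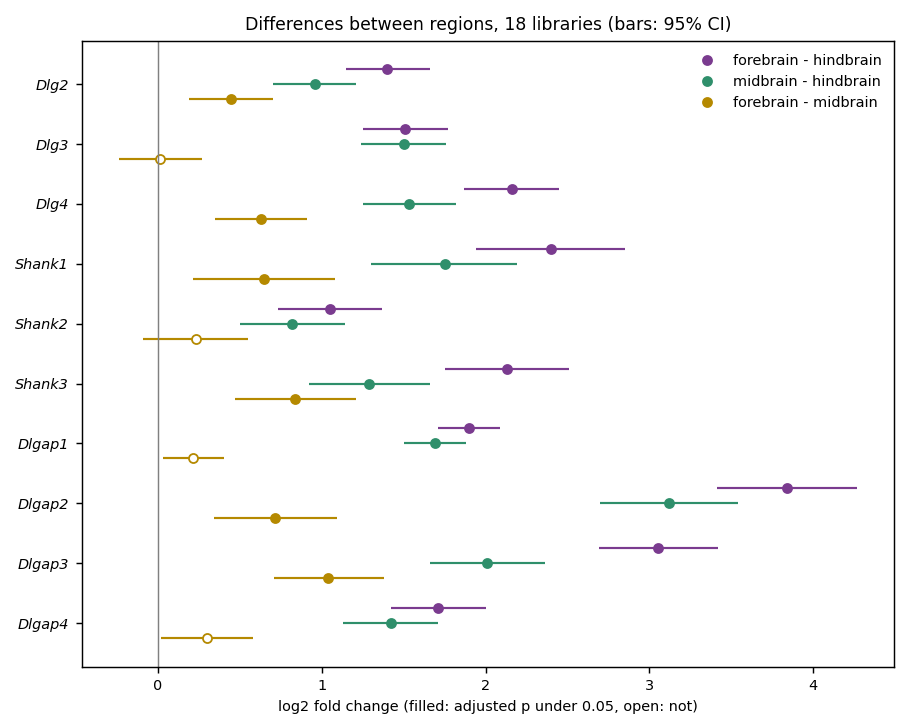
Log2 fold change of each gene between regions over 18 libraries, with bars for the 95% confidence interval and filled points for an adjusted p under 0.05. All intervals against hindbrain lie above 0, and 4 points of forebrain against midbrain are open.

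Midbrain was also above hindbrain for all 10 genes, against 25.1% of all genes called higher. The log2 fold changes ran from 0.82 for *Shank2* (SE 0.15) to 3.12 for *Dlgap2* (SE 0.20), with a median of 1.51. The libraries did not overlap for 9 of 10, against 26.9% of all genes, and the exception was *Shank2*. In midbrain *Shank2* had 99.4, 159.5 and 151.3 CPM in Fmr1CRE mice and 201.4, 191 and 152.6 in WT mice. In hindbrain it had 109, 101 and 97.1 in Fmr1CRE mice and 95.1, 78.9 and 60.3 in WT mice. The overlap came from midbrain Fmr1CRE replicate 1, and in Fmr1CRE mice alone the *Shank2* difference was 0.38 with an adjusted p of 0.209 (edgeR).

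Of the other members, *Dlg4* ranged in midbrain from 419.4 to 623.8 CPM with a median of 569.7, all above its highest hindbrain library of 226.5, a log2 fold change of 1.53 (SE 0.13). *Dlg3* lay at 109.4 to 171 CPM in midbrain, a log2 fold change of 1.5 (SE 0.12), beside 1.51 between forebrain and hindbrain. *Dlg2* lay at 366.4 to 455.8 CPM, with the smallest relative spread of the 10 in midbrain (coefficient of variation 8.16%) and a log2 fold change of 0.96 (SE 0.12). Among the linkers, *Dlgap1* lay at 276.1 to 362.8 CPM and *Dlgap4* at 132.8 to 255.8, with log2 fold changes of 1.69 (SE 0.09) and 1.42 (SE 0.14), and *Dlgap3* differed by 2.01 (SE 0.16). *Shank1* and *Shank3* differed by 1.75 (SE 0.21) and 1.29 (SE 0.18). Between the same 2 regions, 6 of 6 markers of cortical and hippocampal excitatory neurons were higher in midbrain (median log2 fold change 3.8). Of 7 granule neuron markers 6 were lower (median -1.04). Their part in the midbrain levels of the scaffold genes was not tested.

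Forebrain was above midbrain for 6 of 10 genes, against 9.38% of all genes called higher, and differences were smaller. *Dlgap3* had the largest, 1.04 (SE 0.16), and was the only member whose libraries did not overlap, at 381.4 to 652.4 CPM in forebrain and 178.6 to 325.8 in midbrain (10.5% of all genes did not overlap). *Shank3* differed by 0.84 (SE 0.17), *Dlgap2* by 0.71 (SE 0.18), *Shank1* by 0.65 (SE 0.20), *Dlg4* by 0.63 (SE 0.13) and *Dlg2* by 0.44 (SE 0.12). The other 4 did not pass the test. *Dlg3* had a difference of 0.01 with a 95% interval of -0.24 to 0.27, *Dlgap1* of 0.21 (0.03 to 0.40), *Shank2* of 0.23 (-0.09 to 0.55) and *Dlgap4* of 0.30 (0.02 to 0.58).

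With the mouse as a block the difference of *Shank1* was 0.64 with an adjusted p of 0.0786 (edgeR). When mice were left out 1 at a time, each with its 3 libraries, *Shank1* ran from 0.41 without WT replicate 3 to 0.79 without Fmr1CRE replicate 3, and it passed in the latter only (adjusted p of 0.0283 from edgeR, against 0.0538 to 0.159 for the other 5). *Dlg2* did not pass without Fmr1CRE replicate 3 (0.40, adjusted p = 0.0724 from edgeR) or WT replicate 1 (0.42, adjusted p = 0.0881), at differences close to the 0.44 of all mice. Without both mice numbered 3, 3 of 10 passed, while 1608 of 20602 genes were called higher. In WT mice alone 5 of 10 passed (840 of 19442 genes) and in Fmr1CRE mice alone 1 of 10 (219 of 19434 genes). In Fmr1CRE mice the differences were 0.78 for *Shank1*, 0.81 for *Shank3*, 0.61 for *Dlgap2* and 0.60 for *Dlg4*, and that of *Dlg2* was 0.28. Markers of striatal projection neurons, of which 8 of 8 were higher in forebrain than in midbrain, summed to 709.3 to 1865 CPM in forebrain and 206.4 to 594.9 in midbrain. Other cell type markers differed too. Higher in forebrain were 6 of 7 microglial markers and 2 of 6 cortical and hippocampal excitatory markers. Lower were 7 of 7 granule neuron markers (median log2 fold change -2.63), 6 of 7 Purkinje cell markers (-1.49) and 6 of 9 oligodendrocyte markers (-0.40). The part of these cell types in the differences of the members was not tested.

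Levels were compared between genes only per length, as CPM per kilobase of the gene's mean effective length. This is salmon's estimate for the gene's transcripts and not a count of their bases. For *Dlgap3* it was 5003 bases, more than the 4521 bases of all its exons together. On this scale *Dlg4* was the highest in all regions, at 685 ± 129 in forebrain, 442 ± 68.9 in midbrain and 153 ± 24.1 in hindbrain (SD, n = 6), and its range did not overlap that of the next gene, *Dlg2*, at 155 ± 26.3, 114 ± 9.28 and 58.7 ± 11. In forebrain *Dlgap3* (102 ± 19.3), *Dlgap4* (101 ± 14.1), *Shank1* (82.2 ± 24.5), *Dlgap1* (79.8 ± 9.55), *Shank3* (56.7 ± 15.9) and *Dlg3* (44.1 ± 5.94) followed, and each overlapped its neighbour. *Shank2* (20.6 ± 4.24) and *Dlgap2* (13.5 ± 2.5) came last, apart from *Dlg3* but overlapping each other. In hindbrain *Dlgap2* was the lowest, at 0.945 ± 0.287, below the range of *Shank2* at 10.1 ± 1.97.

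The order depends on the length. The mean effective length of *Dlg4* was 1219 bases, whereas its transcript with the most reads is 3488 bases long. That transcript held a median of 67.1% of the gene's reads but 19.8% of its TPM. By the length of that transcript, *Dlg4* was still the highest in forebrain at 240 ± 45.1 (SD, n = 6). By the union of all exons, 13251 bases, it was at 63.1 ± 11.9, after *Dlgap3* (113 ± 21.4), whose range it did not overlap, and *Shank1* (74.9 ± 22.3), whose range it did. *Dlgap2* was the lowest in all regions with all 3 lengths. Over 18 transcript sets that were not split by region, 1 transcript held a median of 91.3% of the reads of *Shank1*, 87.8% of those of *Shank3* and 86.9% of those of *Dlg2*, whereas 2 transcripts of *Shank2* held medians of 54.4% and 39.8%, which ranged over the sets from 40.4% to 90.9% and from 1.3% to 56.0%.

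**Figure D3:**
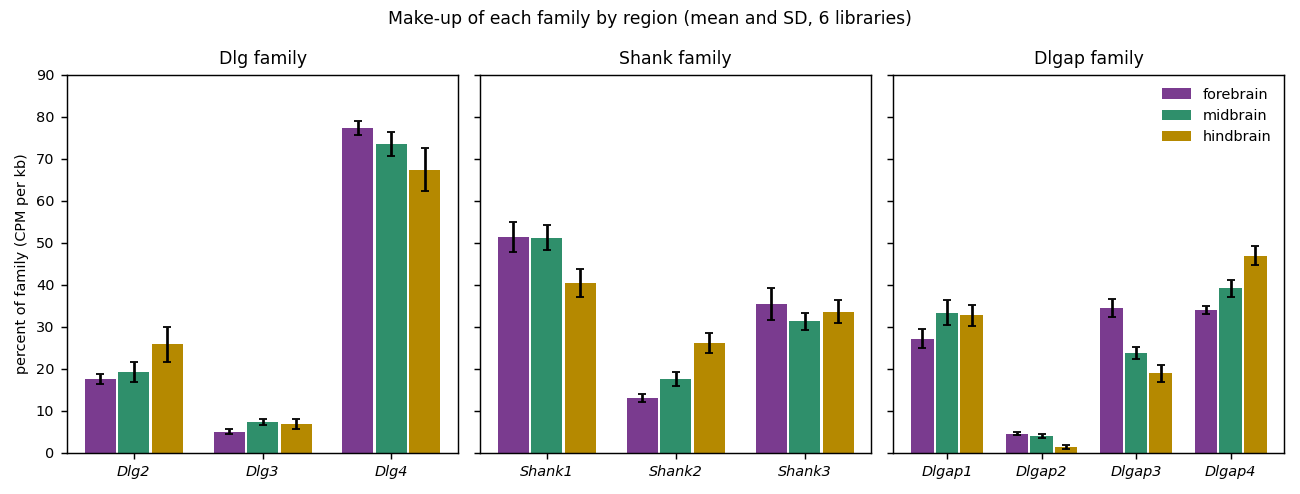
Share of each gene in the summed CPM per kilobase of its family, as mean and SD of 6 libraries per region. *Dlg4*, *Shank1* and *Dlgap3* hold less of their family in hindbrain than in forebrain, and *Dlg2*, *Shank2* and *Dlgap4* hold more.

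The make-up of each family differed between regions. *Dlgap3* held 34.4% ± 2.13 of its family in forebrain and 18.9% ± 2.03 in hindbrain (SD, n = 6), while *Dlgap4* held 34.0% ± 0.911 and 46.9% ± 2.28. *Shank2* held 13.1% ± 0.959 of the Shank genes in forebrain and 26.1% ± 2.46 in hindbrain, and *Dlg2* held 17.6% ± 1.25 and 25.8% ± 4.15 of the Dlg genes. These shares shift with the length used (*Dlgap3* held 65.9% in forebrain and 47.5% in hindbrain by exon union), but a ratio of counts of 2 genes in the same library does not. Transcripts were not split by region, so such ratios compare counts and not numbers of molecules. In each mouse the count ratio of paralogues was compared between regions by an exact sign-flip permutation test (two-sided, 36 tests, smallest possible p = 0.0312), a measure chosen after the data had been seen. Of the 36, 25 reached that p, with an adjusted p of 0.0449, and the tests share genes.

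The count ratio of *Dlgap2* to *Dlgap4* was 4.49-fold higher in forebrain than in hindbrain (log2 difference 2.17 ± 0.65, SD, n = 6 mice, 6 of 6 in the same direction, exact permutation p = 0.0312). *Shank1* to *Shank2* was 2.53-fold higher (1.34 ± 0.24, 6 of 6 mice), as was *Dlgap3* to *Dlgap4* (1.34 ± 0.24, 6 of 6 mice). *Dlg2* to *Dlg4* was lower in forebrain (-0.74 ± 0.37, 6 of 6 mice). By contrast *Dlg2* to *Dlg3* differed by -0.10 ± 0.28, with 3 of 6 mice in each direction (exact permutation p = 0.438), and *Shank1* to *Shank3* by 0.27 ± 0.38 (5 of 6 mice, exact permutation p = 0.125).

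The other genes around these scaffolds were counted by list in forebrain against hindbrain. Of 21 adaptors and enzymes of the density, 15 were higher and 2 lower, with a median log2 fold change of 1.61. *Camk2a*, the kinase subunit that is among the most abundant proteins of the density, was higher by 5.73 (SE 0.26), *Kalrn*, a guanine nucleotide exchange factor, by 4.07 (SE 0.12) and *Sipa1l1*, a Rap regulator, by 2.91 (SE 0.17), and *Homer3*, a Shank ligand prominent in Purkinje cells, had a log2 fold change of -2.79 (SE 0.20). Of 20 receptors and adhesion proteins that scaffolds anchor, 13 were higher and 5 lower (median 0.90). The NMDA receptor subunits *Grin2b* and *Grin2a* were higher by 3.84 (SE 0.37) and 2.14 (SE 0.11), the AMPA receptor auxiliary subunit *Cacng3* by 3.29 (SE 0.17) and *Grm5* by 2.03 (SE 0.15).

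Of 14 other PDZ and MAGUK scaffolds, 8 were higher and 2 lower (median 0.37), led by *Mpp2* at 1.64 (SE 0.12), *Magi2* at 1.52 (SE 0.14), *Lin7b* at 1.16 (SE 0.10) and *Grip1* at 1.02 (SE 0.09). Of 8 genes of the postsynaptic side of inhibitory synapses, not all of them scaffolds, 6 were higher and 0 lower (median 0.80). *Shisa7* was at 2.61 (SE 0.18), *Nlgn2* at 0.94 (SE 0.13) and *Slitrk3* at 0.88 (SE 0.08). Of 9 enzymes that add palmitate to PSD-95 or remove it, 5 were higher and 2 lower (median 0.49), with *Zdhhc8* at 1.78 (SE 0.18), *Zdhhc2* at 0.85 (SE 0.14), *Abhd17c* at 0.78 (SE 0.16) and *Zdhhc15* at 0.62 (SE 0.11).

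Cell type markers moved between the same regions. Of 10 pan-neuronal markers, 4 were higher in forebrain than in hindbrain and 4 lower (median log2 fold change -0.06), with *Syt1* at 2.28 (SE 0.11), *Nefl* at -1.37 (SE 0.09), *Map2* at 1.19 (SE 0.16) and *Rbfox3* at 0.97 (SE 0.14). All 6 cortical and hippocampal excitatory markers (median 4.06), all 8 striatal (3.14) and all 7 microglial (1.03) were higher. All 9 oligodendrocyte markers (-1.06), all 7 granule neuron markers (-3.73), 6 of 7 Purkinje cell markers (-1.90) and 5 of 6 choroid plexus markers (-1.14) were lower. Astrocyte markers were divided, with 2 of 8 higher and 3 lower (0.11), and 2 of 5 endothelial markers were higher (0.25). The part of these cell types in the levels of the scaffold genes was not tested.

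Over the 18 libraries the members correlated with each other at r = 0.82 to 0.99 (median 0.95, 45 pairs, log2 CPM), and within regions, after the region mean was taken off, at 0.04 to 0.94 (median 0.64). The libraries share mice and regions, so these are descriptions. *Dlg4* and *Dlgap3* were the closest pair of members (r = 0.993), and both had *Fbxl16* and *Cdk5r2* as their closest genes outside the group (r = 0.995 and 0.995 for *Dlg4*, and 0.995 and 0.994 for *Dlgap3*). The closest genes were *Zmiz2* and *Ttbk1* for *Shank1* (0.991 and 0.989), *Rims4* and *Ski* for *Shank2* (0.964 and 0.963), *Neurl1a* and *Dab2ip* for *Shank3* (0.980 and 0.979), *Purb* for *Dlg2* (0.975), and *Plppr4* and *Grin2a* for *Dlg3* (0.985 and 0.985). They were *Cnksr2* and *Mmp17* for *Dlgap1* (0.996 and 0.994), *Dclk1* and *Nr2e1* for *Dlgap2* (0.995 and 0.994), and *Syt7* and *Bsn* for *Dlgap4* (0.991 and 0.989).

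Whether the edited element changed these mRNAs was asked in each region. No member passed the test between Fmr1CRE and WT mice in forebrain, midbrain or hindbrain (0 of 10 in each with edgeR and with DESeq2, against 0.0%, 0.00543% and 0.0% of all genes with edgeR). An unadjusted p under 0.05 was found for 1, 0 and 1 of the 10, against 5.43%, 6.17% and 5.13% of all genes. With 3 mice against 3 an exact permutation test could not give a p under 0.1, and the intervals below give the differences that these data cannot exclude. Values are listed in the order of replicates 1, 2 and 3.

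In forebrain all 10 members were on the lower side in Fmr1CRE mice, with log2 fold changes of -0.37 to -0.07 and a median of -0.19, while 50.1% of all genes were on the higher side (median over all genes 0.00). *Dlgap1* was at 312.2, 352 and 382.9 CPM in Fmr1CRE mice and at 422.9, 405.4 and 433.6 in WT mice. It was the only member whose genotypes did not overlap (10.3% of all genes did not), with a log2 fold change of -0.24 (SE 0.10) and an adjusted p of 0.806 (edgeR). *Shank3* had the largest difference, -0.37 (SE 0.25, 95% interval -0.96 to 0.22), with 230.9, 466.3 and 395.5 CPM in Fmr1CRE mice and 413.9, 426.7 and 596.1 in WT mice. Its low value was that of Fmr1CRE replicate 1, which was the lowest forebrain library for all 10 members. Without that mouse 8 of 10 were on the lower side, with a median of -0.06. The members vary together within regions, so their sides are not separate results.

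In midbrain 8 of 10 were on the lower side, with a median log2 fold change of -0.14 (49.0% of all genes were on the higher side), and the genotypes overlapped for all 10 (11.3% of all genes did not). Without Fmr1CRE replicate 1, 5 of 10 were on the lower side, with a median of 0.00. That mouse was the lowest midbrain library for 8 of 10 members, so leaving it out raises their Fmr1CRE values by construction. Without both mice numbered 3, 8 of 10 were on the lower side, with a median of -0.41. With offsets for GC content and length 5 of 10 were, with a median of -0.02. *Shank1* was at 319.6, 414.1 and 525.6 CPM in Fmr1CRE mice and at 767.1, 611.7 and 412.6 in WT mice, a log2 fold change of -0.51 (SE 0.24, 95% interval -1.07 to 0.06). *Shank2* and *Shank3* had log2 fold changes of -0.41 (-0.83 to 0.02) and -0.33 (-0.69 to 0.03), and *Dlg2* and *Dlg3* of 0.08 and 0.07. For *Shank1*, WT replicate 3 lay among the Fmr1CRE values.

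In hindbrain 9 of 10 were on the higher side in Fmr1CRE mice, with a median log2 fold change of 0.28, against 48.3% of all genes on the higher side, and *Dlg3* was at -0.03. The genotypes did not overlap for 3 members (10.9% of all genes did not). *Shank2* was at 109, 101 and 97.1 CPM in Fmr1CRE mice and at 95.1, 78.9 and 60.3 in WT mice, a log2 fold change of 0.38 (95% interval -0.02 to 0.77). *Dlgap4* was at 79.3, 78.9 and 85.0 against 72.7, 67.8 and 57.4 CPM, a log2 fold change of 0.29 (SE 0.12, unadjusted p = 0.0475 and adjusted p = 0.875 from edgeR). *Dlgap1* was at 121, 103 and 105.5 against 102.1, 89.7 and 96.1 CPM, a log2 fold change of 0.19 (SE 0.11). *Shank3*, whose genotypes overlapped, had the largest difference, 0.46 (SE 0.20, 95% interval -0.01 to 0.94).

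**Figure D4:**
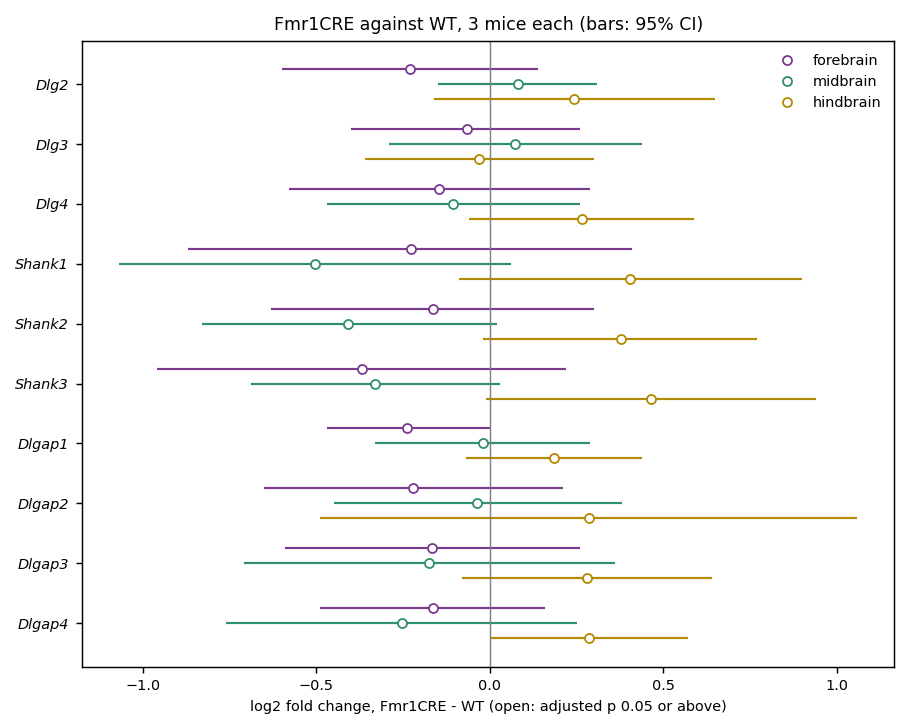
Log2 fold change between Fmr1CRE and WT mice (3 each) in every region, with bars for the 95% confidence interval, and all points open because no adjusted p was under 0.05. Forebrain points lie below 0 for 10 of 10 genes and hindbrain points above 0 for 9 of 10.

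The genotype difference was tested across regions by an interaction term. It passed for 0 of 10 members and for 0.0% of all genes (edgeR, with 52 genes and 0 members for DESeq2), with adjusted p-values of 0.66 to 0.934. An unadjusted p under 0.05 was found for 2 of 10, *Shank3* (0.0415, edgeR) and *Shank2* (0.046, edgeR), against 7.54% of all genes. So the opposite sides of forebrain and hindbrain were not shown to differ. With the regions of a mouse summed, 0 of 10 passed with edgeR and DESeq2 (0.00451% of all genes did with edgeR), 0 of 10 had an unadjusted p under 0.05 (3.7% of all genes did), 9 of 10 were on the lower side (50.2% of all genes were on the higher) and log2 fold changes ran from -0.24 for *Shank1* to 0.02 for *Dlg3*. Without Fmr1CRE replicate 1, 4 of 10 were on the lower side in the summed counts. In the other 15 lists, 0 of 145 genes passed in a genotype comparison with edgeR. By region 6, 22 and 11 had an unadjusted p under 0.05 (forebrain first, hindbrain last), against 5.43%, 6.17% and 5.13% of all genes. The 22 of midbrain lay furthest above the share of all genes, and the reason was not tested. Of the 145, DESeq2 called 5, of which 4 are named here after their values were seen. In midbrain these were the striatal markers *Adora2a* (log2 fold change 2.41) and *Rgs9* (1.2) and the astrocyte marker *Gfap* (0.32), and in hindbrain *Nlgn2* (0.58). Their adjusted p-values from edgeR were 0.535 to 0.749. The striatal markers summed to 594.9 CPM in midbrain Fmr1CRE replicate 2, against 206.4 to 316.8 in the other midbrain libraries. The part of that 1 library in the calls of *Adora2a* and *Rgs9* was not tested.

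**Figure D5:**
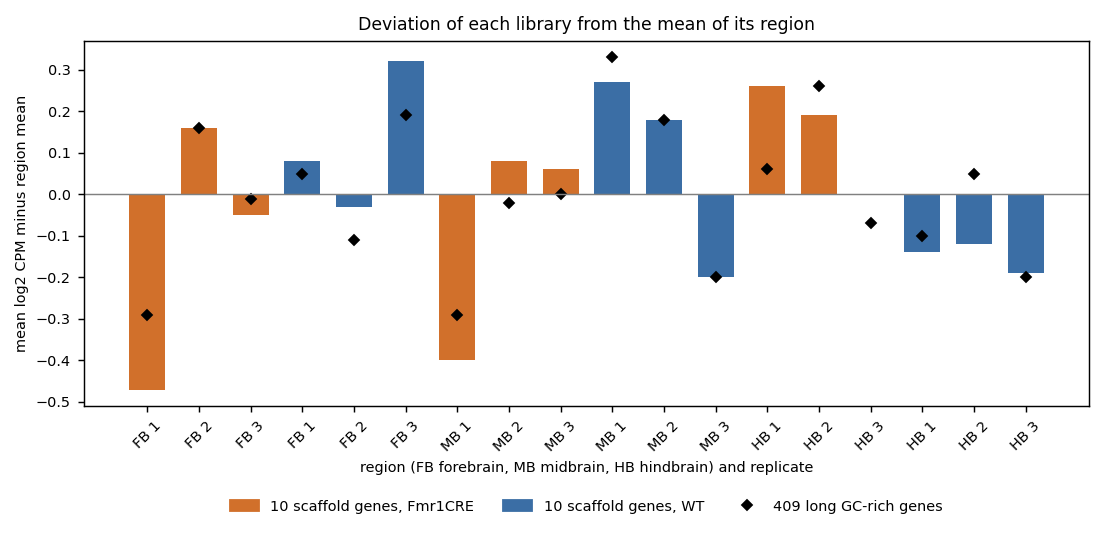
Mean log2 CPM of the 10 genes in each library minus the mean of its region (bars, Fmr1CRE orange and WT blue), with the same for 409 long GC-rich genes (diamonds). The bars of Fmr1CRE replicate 1 reach -0.47 in forebrain and -0.40 in midbrain, and 0.26 in hindbrain.

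Within regions, the correlation between paired members over the 18 libraries ran from 0.04 for *Dlg3* and *Shank1* to 0.94. In forebrain Fmr1CRE replicate 1 was the lowest of 6 libraries for 10 of 10 members, with a mean deviation of -0.47 on the log2 scale, and WT replicate 3 the highest for 8 of 10, at 0.32. In midbrain Fmr1CRE replicate 1 was the lowest for 8 of 10, at -0.40, and WT replicate 1 the highest for 6 of 10, at 0.27. In hindbrain Fmr1CRE replicate 1 was the highest for 5 of 10, at 0.26, and WT replicate 3 the lowest for 6 of 10, at -0.19.

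Other genes deviated in the same libraries. The 409 long GC-rich genes had a GC content above 55%, a mean effective length above 4000 bases and a mean log2 CPM above 3. These limits were chosen after the values were seen, and the members were left out of the 409. By GC content and length, *Shank1*, *Shank2*, *Shank3* and *Dlgap3* meet the limits and the other members do not. The 409 genes deviated by -0.29 in forebrain and -0.29 in midbrain of Fmr1CRE replicate 1, and by 0.06 in its hindbrain. Over the 18 libraries their deviation and that of the members had r = 0.90. This was 0.93 for the adaptors and enzymes of the density, 0.83 for the genes of inhibitory synapses and -0.16 to 0.78 for the other 13 lists. In the forebrain of the same mouse the striatal markers deviated by -0.84, the astrocyte and the endothelial markers by -0.40 each, the pan-neuronal markers by -0.23 and the cortical and hippocampal excitatory markers by 0.06, and *Malat1* was at 11.18 log2 CPM, against 9.67 to 10.83 in the other 5 forebrain libraries. In the midbrain of Fmr1CRE replicate 1 the cortical and hippocampal excitatory markers deviated by -0.58 and the granule neuron markers by -0.75. The Purkinje cell markers deviated by -0.64 there, and the striatal, pan-neuronal and astrocyte markers by -0.01, -0.06 and -0.06. The part of these in the genotype values was not tested. Without Fmr1CRE replicate 1, the median log2 fold change of the members was -0.06 in forebrain, where 8 of 10 were on the lower side, 0.00 in midbrain and 0.24 in hindbrain. Without both mice numbered 3 it was -0.12, -0.41 and 0.28. With offsets for GC content and length, added after the data had been seen, it was -0.16, -0.02 and 0.22, with 0 of 10 members called.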

How the data were processed

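The authors ran the bcbio_nextgen pipeline, quantified single-end reads with Salmon 0.14.0 per the labels (which name DESeq2 1.30.1 and mm10 too), and deposited gene counts, estimates rounded to whole numbers, with no normalization. The annotation is not given in the sources used here. The deposited expected counts and TPM per transcript served only for lengths and transcript shares, pooled over 18 sets, because file names and sample records disagreed. The deposited log2 values after variance stabilization were not used. Symbols and positions came from GENCODE M21, which named 53431 of 53468 genes; those without a symbol held 0.0151% of counts.

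Counts were tested with edgeR 4.0.16 in R 4.3.3 (TMM, default filter on low counts, quasi-likelihood test, Benjamini-Hochberg adjustment over all genes, threshold 0.05). CPM are TMM-normalized, and log2 CPM used a prior count of 2. Regions were compared over 18 libraries, and genotypes within regions, on summed counts, and by interaction. The main region fits and the interaction treat regions of a mouse as independent. A mouse gave all 3 regions, so its number pairs them. Deviations of libraries of the same mouse correlated at -0.22 to 0.25. DESeq2 1.42.0, other scalings and filters, blocks and left-out mice were alternatives. The fits were tested on simulated data with 200 genes changed by 1.5 on the log2 scale. Forebrain against hindbrain called 83.5% of them, the interaction 53.5% and the forebrain genotype fit 54%. The last called 9.09% at a mean CPM up to 3 and 93.4% above 30. Differences as small as those of the members between genotypes were not simulated. Each simulated gene had 1 spread for all groups, and shifts shared by many genes of a library were not simulated either. Intervals are at 95%. Between genotypes they cover the spread between mice, and between regions the spread between libraries, with no mouse block. All 10 members were named, up to 4 called genes per list with the largest difference between forebrain and hindbrain, and the 2 most correlated genes per member. Some genes that this rule picks are not reported here. Members and lists were chosen with earlier results of these data known.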

Additional observations from a re-analysis of the deposited data

Results flagged for a closer look

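In midbrain, *Dlg2* was at 456 CPM in Fmr1CRE replicate 2, and its gap to the next library was 0.72 of the whole range of the 6 midbrain libraries, above Dixon's 95% critical value for 6 values. This was 1 of 30 groups of 6 tested (10 genes in 3 regions), and chance alone marks about 1 in 20 groups.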

How the results depend on the processing

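Of 1030 log2 fold changes of members under alternatives, 974 kept their direction and their side of the threshold. Forebrain against midbrain gave 3 members without both mice numbered 3, 1 in Fmr1CRE mice alone and 5 in WT mice alone, in place of 6, and 4 to 5 with 1 mouse left out. The other comparisons kept their count of members within 1.5 times under all alternatives run. With the mouse as a replicate block, 10, 5 and 10 members passed in forebrain against hindbrain, forebrain against midbrain and midbrain against hindbrain, and *Shank1* in forebrain against midbrain (0.64) was the one call it changed. Between genotypes the replicate numbers are shared by number alone (r of -0.33 to 0.16), and with the replicate block 0 members passed in any region.

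*Dlg3* in forebrain against midbrain turned to -0.047 with total counts, -0.01 with no filter, -0.13 without both mice numbered 3 and -0.07 in Fmr1CRE mice, and ran from -0.087 to 0.10 with 1 mouse left out. Between genotypes, *Shank1* (0.14) and *Shank2* (0.023) in forebrain, *Dlg3* (0.063) in hindbrain, and *Dlg2* (0.071) and *Dlg3* (-0.0081) in the summed counts turned without both mice numbered 3. In midbrain *Dlgap1* turned with total counts (0.012), and with GC and length offsets *Dlgap1* (0.0084), *Dlgap2* (0.068) and *Dlgap3* (0.061) did. With 1 mouse left out, forebrain ran from -0.20 to 0.062 for *Dlg3*, -0.32 to 0.0097 for *Dlg4* and -0.53 to 0.045 for *Shank1*. Midbrain ran from -0.012 to 0.13 for *Dlg2*, -0.12 to 0.21 for *Dlg3*, -0.24 to 0.024 for *Dlg4*, -0.14 to 0.079 for *Dlgap1* and -0.20 to 0.13 for *Dlgap2*, and hindbrain from -0.11 to 0.12 for *Dlg3*. The summed counts ran from -0.093 to 0.082 for *Dlg2*, -0.059 to 0.14 for *Dlg3*, -0.18 to 0.056 for *Dlg4*, -0.29 to 0.057 for *Dlgap2*, -0.22 to 0.012 for *Dlgap3* and -0.18 to 0.0086 for *Dlgap4*. The cause of these turns was not tested.

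By exon union, the levels in forebrain, midbrain and hindbrain (CPM per kilobase) were 33.0, 24.2 and 12.5 for *Dlg2*, 23.0, 22.8 and 8.08 for *Dlg3*, 63.1, 40.7 and 14.1 for *Dlg4*, 21.5, 18.5 and 5.75 for *Dlgap1*, 8.12, 4.93 and 0.568 for *Dlgap2*, and 28.5, 23.2 and 8.70 for *Dlgap4*. By the transcript with the most reads, a length added later, they were 71.7, 52.5 and 27.1 for *Dlg2*, 240, 155 and 53.7 for *Dlg4*, 132, 64.0 and 15.9 for *Dlgap3*, 49.7, 40.5 and 15.2 for *Dlgap4*, and 6.74 in midbrain for *Dlgap2*.

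Over all genes, calls in forebrain against midbrain went from 3939 to 2258 to 4001 with 1 mouse left out, 1729 in WT mice and 527 in Fmr1CRE mice, and in those mice alone from 10530 to 6178 and from 9994 to 4847 against hindbrain. Genotype calls in forebrain, midbrain, hindbrain, summed counts and interaction went from 0, 1, 0, 1 and 0 to 31, 62, 59, 26 and 52 with DESeq2. With no filter they were 11, 11, 4 and 7 in the last 4. Without both mice numbered 3, midbrain gave 3, hindbrain 1, summed counts 0 and the interaction 131. With 1 mouse left out, midbrain gave 0 to 4, hindbrain 0 to 5 and summed counts 0. A single fit of 18 libraries gave 1, 0 and 1 by region, a minimum of 10 counts gave 0 in midbrain, and the block gave 0 in summed counts. *Dlgap2* in hindbrain, with 51 to 123 reads per library, was the member with the least depth.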
